A study of Mus musculus with 5 samples.

Results

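The genes described here encode pre-mRNA splicing factors: the serine/arginine-rich (SR) proteins, the heterogeneous nuclear ribonucleoproteins (hnRNPs), the SF3a and SF3b subunits, the small nuclear ribonucleoprotein (snRNP) proteins named Snrp, the PRP factors and the U2AF subunits. Their probe sets were chosen by name, as those annotated with exactly 1 gene symbol starting with Srsf, Hnrnp, Sf3a, Sf3b, Snrp, Prpf or U2af. This gave 62 genes, read by 174 of the table's 45037 probe sets (18193 genes in all), the manufacturer's controls left out. RNA came from 2 progenitor populations of mouse bone marrow, both from wild type animals of the C57BL/6 strain, sorted in 2 rounds, with 10000 to 30000 cells per sample and 2 cycles of amplification. Common dendritic cell progenitors (CDP, 3 arrays) were lineage-negative and Sca-1-, with an intermediate level of c-Kit, and CD34+, Flk2+, CD16/32- and CD115+. Common myeloid progenitors (CMP, 2 arrays) were lineage-negative, Sca-1- and CD11c-, with a high level of c-Kit, and CD34+, Flk2+, CD16/32- and CD115-. No treatment was applied to either population, and the age of the mice is not given in the sources used here. The title of CDP array 3 starts CM, whereas BM starts the other 4 titles. Nothing in the labels says whether the arrays came from separate mice or pools, so each p-value reflects only how these samples vary, which could be technical variation.

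Splicing removes introns from pre-mRNA. The U1 snRNP and the U2AF heterodimer recognise the ends of an intron, SF3a and SF3b are parts of the U2 snRNP that binds the branch point, and PRP factors act in the tri-snRNP and in the rearrangements that make the spliceosome active. SR proteins mostly favour the use of exons that they bind, hnRNPs often oppose it, and the balance between them sets alternative exons. In blood cells, SF3B1, SRSF2 and U2AF1 are known as genes mutated in human myelodysplastic syndromes, and hnRNP L-like (Hnrnpll) as a regulator of CD45 exons in mouse lymphocytes.

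Values are the deposited log2 intensities, and a difference is the mean of the CDP arrays minus the mean of the CMP arrays, so 1 unit is a doubling of signal. Members were tested where at least 2 of the 5 arrays reached log2 5, which 148 probe sets of 59 genes did. Of the 26 others, 22 were below that level on every array. Prpf40b, Srsf12 and Snrpn, the last of which encodes a neuronal form of a core snRNP protein, had no tested probe set. The tested members were bright, with a median level of 10.7, against 7.89 over all 16552 tested probe sets, and 140 of them reached log2 5 on all 5 arrays. They covered 57 of the 62 genes. Because these are bulk samples, fewer cells of a type and less RNA per cell cannot be told apart.

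The arrays also differed in control and marker probe sets. The 5′ control probe set of beta-actin, commonly used to judge RNA integrity, stood at 6.54, 12.97 and 10.52 on the CDP arrays, against 6.71 and 12.40 on the CMP arrays, so CDP array 1 and CMP array 1 were both low. The Gapdh 5′ control, at 7.66, 10.16 and 7.40 in CDP, against 7.57 and 10.97 in CMP, was low on CDP array 3 too, so the split used below into 2 arrays low in the beta-actin 5′ control and 3 others rests on beta-actin alone. The 3′ minus 5′ gap for beta-actin was 8.05, 2.12 and 4.48 in CDP, against 7.35 and 1.81 in CMP. The gap for Gapdh was 4.64, 3.88 and 6.60 in CDP, against 4.71 and 3.22 in CMP. Neutrophil granule genes were detected for 6 of 6 genes on CDP array 2 and for none on the other 4 arrays, and the sum of their log2 values ranged from 15.5 to 67.2 in CDP, against 17.0 to 18.5 in CMP. Of the 7 genes of the sorting gate and the dendritic lineage, 7 were detected on each CDP array, against 6 on each CMP array, with Itgax (CD11c) the one missing in CMP. Markers of T and NK cells and of mature dendritic cells were detected on no array. Of 4 mast cell and basophil genes, 1, 2 and 1 were detected in CDP, against 3 and 3 in CMP, with log2 sums of 14.8 to 15.7 in CDP, against 25.6 to 30.1 in CMP. Of 5 megakaryocyte genes 0, 1 and 1 were detected in CDP, against 2 and 2 in CMP, of 4 B cell genes 2 on each CDP array, against 1 on each CMP array, and of 4 erythroid genes none in CDP, against 1 on CMP array 1. The proliferation list, 5 of 5 genes detected throughout, summed to 64.11, 65.98 and 64.96 in CDP, against 60.18 and 62.78 in CMP. The part of any of these in the results below was not tested, except where a value with and without an array is given.

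No splicing factor probe set passed the test between the 2 populations. With limma and Benjamini-Hochberg adjustment over all tested probe sets, 0 of 148 members were higher in CDP at an adjusted p under 0.05 and 0 were lower, against 1.73% of all tested probe sets (1.31% higher and 0.423% lower). Among brighter probe sets, at a mean of log2 8 or more, 0 of 123 members were called. Of all 7999 tested probe sets at that level, 64 were called higher and 9 lower. The smallest adjusted p among the members was 0.162, for Hnrnpu. At an unadjusted p under 0.05 there were 7 members (1 higher, 6 lower), or 4.73%, against 15.9% of all tested probe sets. Those 7 probe sets belonged to Srsf4, which was the one higher in CDP, and to Hnrnpu, Prpf39, Hnrnpab, Srsf10 and Hnrnpa1, the last with 2 probe sets. The design limits this comparison: the smallest difference called anywhere in the table was 1.86, and an exact two-sided permutation test of 3 arrays against 2 cannot go below 0.1.

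The members' differences were small and lay more often below 0. They ran from -1.94 to 1.01, and 138 of 148 (93.2%) were within 1 log2 unit of 0, against 81.4% of all tested probe sets. For 25 members (16.9%) the 95% confidence interval itself lay within 1 log2 unit either side of 0, against 10.8% of all tested probe sets, so for most members a change of 2-fold was not bounded by these 5 arrays. At a mean of log2 8 or more these 2 shares were 93.5% and 17.9% for the members, against 85.9% and 13.4% of all tested probe sets at that level. Over the 148 tested members the sign was negative for 98 and positive for 50, a positive share of 33.8%, against 57.2% over all tested probe sets. Their median difference was -0.22, against 0.12 over all tested probe sets, which puts the members' median at -0.33 relative to it. Without CMP array 2 the members' median was -0.032, and -0.20 relative to the table, with 69 positive and 79 negative. Without CDP array 2, the one with neutrophil genes, the median was -0.21 with 49 positive and 99 negative. It was 0.00 between the 2 arrays low in the beta-actin 5′ control, and -0.31 between the 3 others, against 0.12 and 0.10 over all tested probe sets. The median SD within groups was 0.46 for the members and 0.46 for all tested probe sets.

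All CDP arrays lay above all CMP arrays for 10 members (6.76%), against 21.2% of all tested probe sets, and all lay below for 23 (15.5%), against 11.0%. Those 33 probe sets belonged to 27 genes. Of them, 11 of the 23 lower ones were hnRNP probe sets, and 4 of the 10 higher ones were SR protein probe sets. Among the 148 tested members, 52 were hnRNP and 31 were SR protein probe sets.

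**Figure D1:**
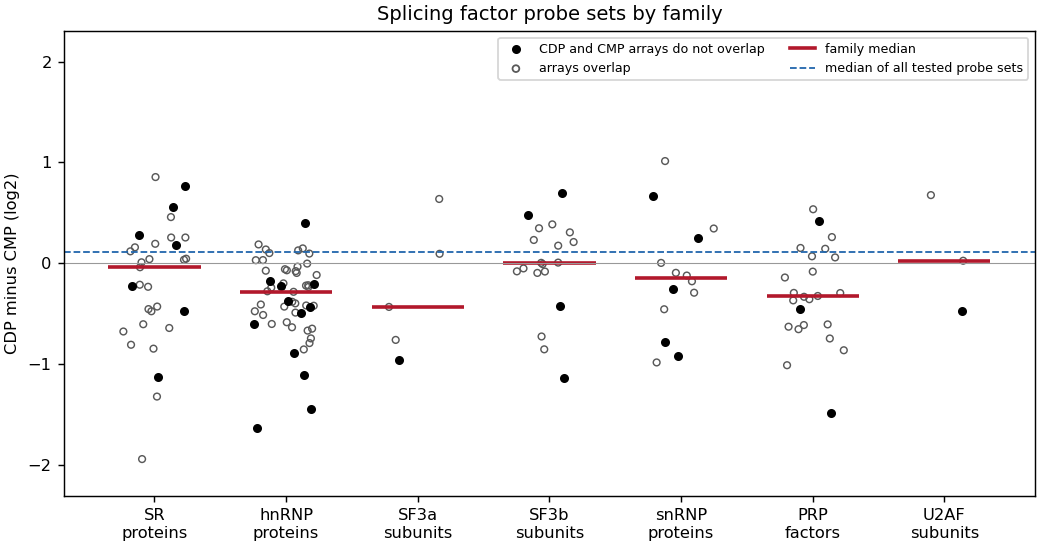
CDP minus CMP difference in log2 units (vertical axis) of each of the 148 tested member probe sets (points) by family, filled where the CDP and CMP arrays do not overlap, with the family's median (red line) and the median of all tested probe sets (dashed, 0.12). Of the hnRNP points 43 of 52 lie below 0, while the SR protein points split into 15 above and 16 below.

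Among the families, the hnRNPs had the most one-sided signs. Of 52 tested hnRNP probe sets of 19 genes, 9 were positive and 43 negative, with a median of -0.28, or -0.39 relative to the table. All CDP arrays lay below all CMP arrays for 11 of them and above for 1, against 11.0% and 21.2% over all tested probe sets. The median differed between the 2 kinds of array, at -0.03 in the pair low in the beta-actin 5′ control and -0.50 in the 3 other arrays, and without CMP array 2 it was -0.14 with 19 positive and 33 negative. Relative to the table, it stayed between -0.59 and -0.28 over 17 alternative settings.

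Hnrnpu (scaffold attachment factor A) encodes a nuclear RNA- and chromatin-binding protein, and its probe set 1450849_at had the smallest p of all members. It read 10.41, 10.41 and 9.53 in CDP, against 11.49 and 11.63 in CMP. Every CDP value was over 1 unit below every CMP value, and the difference was -1.44 ± 0.40 (SE; 95% confidence interval -2.40 to -0.48), with an unadjusted p of 0.0104 and a limma adjusted p of 0.162. It ranged from -1.66 to -1.15 over the alternative settings. The 4 other tested Hnrnpu probe sets were also negative, at -0.03, -0.42, -0.47 and -0.67, and in each of them the populations' arrays overlapped.

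Hnrnpa1 encodes an hnRNP known for silencing exons, and both its tested probe sets were lower on all CDP arrays. Probe set 1455305_x_at read 11.88, 12.22 and 11.72 in CDP, against 12.51 and 13.59 in CMP, a difference of -1.11 ± 0.43 (limma adjusted p = 0.284). Probe set 1436549_a_at read 12.54, 12.74 and 12.50 in CDP, against 13.10 and 13.87 in CMP, a difference of -0.89 ± 0.36 (limma adjusted p = 0.306). CMP array 2 was the highest of the 5 for both, and without it 1455305_x_at differed by -0.57. The suffix _x_at marks probes that the manufacturer found to match other transcripts too.

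Hnrnpab, an RNA-binding protein close to hnRNP D, showed one probe set apart from the rest of its own. Probe set 1426114_at read 9.11, 9.34 and 9.93 in CDP, against 11.96 and 10.23 in CMP, a difference of -1.63 ± 0.58 (limma adjusted p = 0.252). CMP array 1 stood far above CMP array 2: the difference was -0.77 without CMP array 1 and -2.50 without CMP array 2. The 5 other tested Hnrnpab probe sets lay between -0.49 and 0.10, among them 1455855_x_at, one of the 4 members with the smallest spread, at 14.56, 14.57 and 14.49 in CDP, against 14.66 and 14.77 in CMP.

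The other hnRNPs of the fixed list of genes sat closer to 0. Hnrnpa2b1, which binds RNA motifs in splicing and transport, had 4 tested probe sets at -0.37, -0.28, -0.20 and 0.03. For Hnrnpk, a poly(C)-binding protein, the 3 tested probe sets were at -0.60, -0.28 and -0.22. Hnrnpl, whose protein binds CA-rich RNA, had 1 tested probe set near the detection level, at 4.98, 6.60 and 6.35 in CDP, against 5.22 and 7.53 in CMP. In both populations its low value was on array 1, and the difference was -0.40. Its paralog Hnrnpll had 2 tested probe sets at -0.42 and -0.12.

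**Figure D2:**
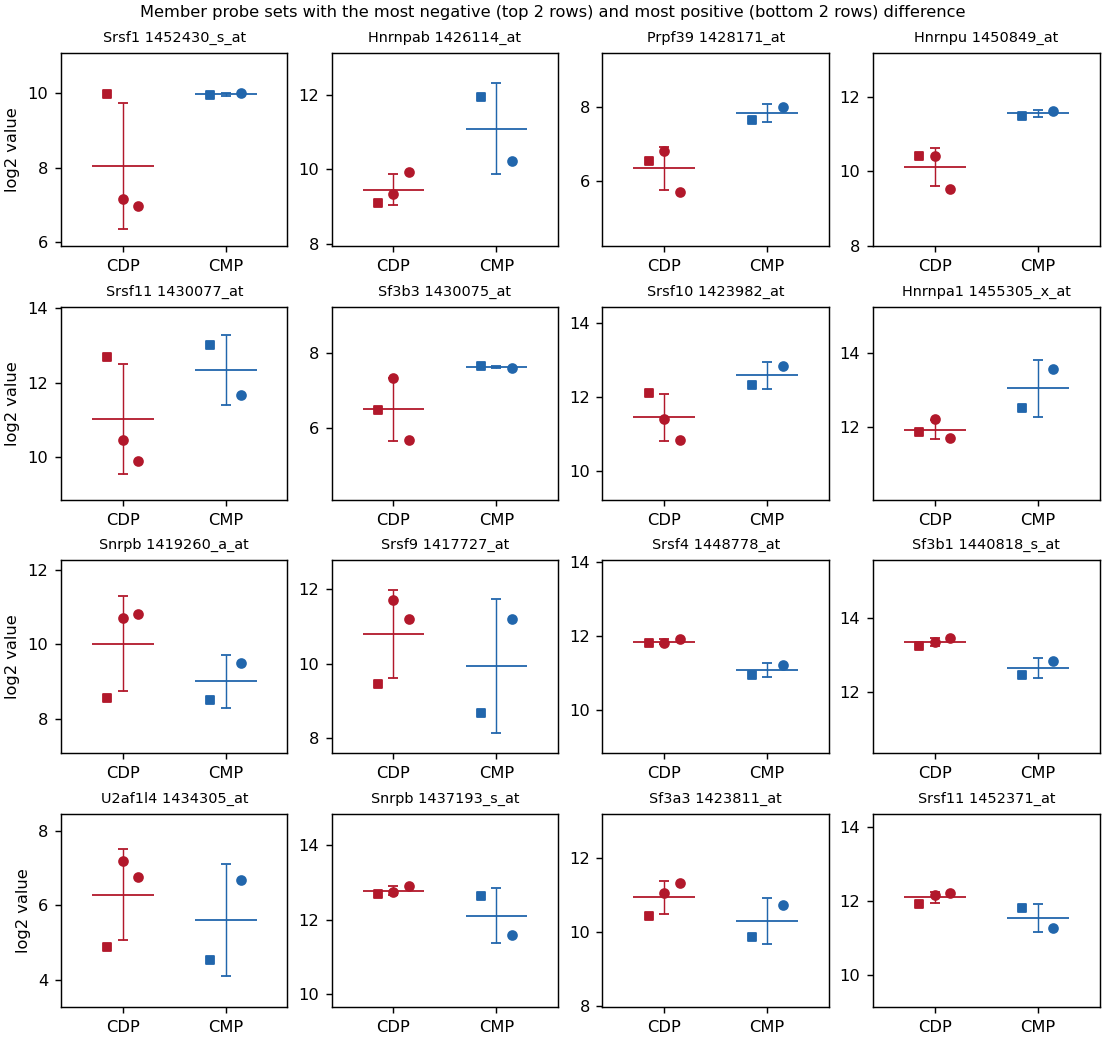
Log2 values (vertical axis, each panel with its own range) on the CDP and CMP arrays for the 8 most negative (upper rows) and 8 most positive (lower rows) member probe sets, with the mean and SD of each population as a line and bars, and squares for the 2 arrays low in the beta-actin 5′ control. Hnrnpu and Prpf39 show no overlap, whereas in Srsf1 1452430_s_at one CDP array lies level with the CMP arrays.

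SR proteins carry RNA recognition motifs and a domain rich in arginine and serine, and their 31 tested probe sets split evenly: 15 were positive and 16 negative, with a median of -0.04, or -0.15 relative to the table. The sign of that median was not stable, since it ran from -0.27 to 0.08 over the alternatives. All CDP arrays lay above all CMP arrays for 4 of them and below for 3, against shares of 21.2% and 11.0% over all tested probe sets.

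Srsf4, an SR protein with a long domain rich in arginine and serine, was the one member higher in CDP at an unadjusted p under 0.05. Its only tested probe set, 1448778_at, read 11.82, 11.81 and 11.93 in CDP, against 10.96 and 11.22 in CMP. The CDP arrays lay close together and all above both CMP arrays, and the difference was 0.76 ± 0.30 (95% confidence interval 0.03 to 1.5), with an unadjusted p of 0.0436 and a limma adjusted p of 0.296.

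The largest difference of any member was in Srsf1, which encodes the SR protein SF2/ASF, and 2 of the 3 CDP arrays held the low values. Probe set 1452430_s_at read 9.99, 7.15 and 6.97 in CDP, against 9.946 and 10.002 in CMP. CDP array 1 lay with the CMP arrays while the 2 other CDP arrays were nearly 3 units lower, so the difference of -1.94 ± 0.93 (95% confidence interval -4.20 to 0.33; limma adjusted p = 0.385) was 0.04 in the pair low in the beta-actin 5′ control and -2.94 in the other arrays. The 5 other tested Srsf1 probe sets were at -0.81, -0.47, 0.04, 0.04 and 0.19. Among them 1434972_x_at read 14.12, 14.12 and 14.11 in CDP, against 13.75 and 14.40 in CMP, and its populations overlapped.

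Srsf10, an SR protein known as a splicing repressor when dephosphorylated, and Srsf11 had probe sets on both sides of 0. Srsf10 1423982_at read 12.10, 11.41 and 10.83 in CDP, against 12.33 and 12.83 in CMP, all CDP arrays being lower (-1.13 ± 0.46, limma adjusted p = 0.309). Srsf10 1418526_at read 10.07, 9.79 and 9.84 in CDP, against 9.67 and 9.76 in CMP, all CDP arrays being higher by a little (0.18). In Srsf11, probe set 1430077_at read 12.70, 10.47 and 9.89 in CDP, against 13.01 and 11.68 in CMP (-1.32 ± 0.90). Here array 1 was the high one in both populations. Srsf11 1452371_at read 11.94, 12.16 and 12.23 in CDP, against 11.81 and 11.28 in CMP (0.56 ± 0.33), with no overlap and the opposite sign.

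Srsf2 (SC35) and Srsf3, the smallest SR protein, gave no difference over 1 unit. The 4 tested Srsf2 probe sets were at -0.47, -0.23, 0.01 and 0.12, and the 6 of Srsf3 at -0.84, -0.04, 0.05, 0.16, 0.28 and 0.46. The Srsf3 probe set at -0.84, 1438215_at, read 8.14, 8.45 and 7.55 in CDP, against 9.74 and 8.04 in CMP, so CMP array 1 alone was high. Srsf6 1447898_s_at had one of the smallest spreads of all members, at 11.29 on each CDP array, against 11.43 and 11.59 in CMP. Srsf9 read 9.45, 11.71 and 11.21 in CDP, against 8.66 and 11.21 in CMP (0.86 ± 0.95), and its difference was -0.42 without CMP array 1.

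The U2 snRNP subunits SF3a and SF3b had medians of -0.43 over 5 tested probe sets (2 positive, 3 negative) and 0.01 over 19 (10 positive, 9 negative). Leaving out single arrays moved the SF3a median to between -0.82 (without CMP array 1) and -0.09 (without CDP array 2), and it was 0.10 over the 3 probe sets left without shared ones. The SF3b median lay between -0.14 and 0.13 over the alternatives. Sf3b1 encodes the subunit that contacts the branch point region. Its probe set 1440818_s_at read 13.23, 13.33 and 13.44 in CDP, against 12.45 and 12.83 in CMP, with no overlap (0.69 ± 0.31, limma adjusted p = 0.356). A second Sf3b1 probe set, 1449138_at, read 13.81, 13.62 and 13.69 in CDP, against 12.96 and 13.50 in CMP, again with all CDP arrays higher (0.48). The 2 others were at 0.01 and -0.09. Sf3b3 1430075_at, for a large scaffold subunit, read 6.49, 7.35 and 5.66 in CDP, against 7.66 and 7.61 in CMP (-1.14 ± 0.53, limma adjusted p = 0.371), and the CDP arrays were all lower. The other tested Sf3b3 probe set was at -0.72, and there the populations overlapped.

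The probe sets of Sf3a1, Sf3a3 and Sf3b2 disagreed with each other. Sf3a1, the subunit that also binds U1, was at -0.96 ± 0.42 on 1419087_s_at and 0.10 on 1449333_at. Sf3a3 was at 0.64 ± 0.44 on 1423811_at and -0.76 ± 0.49 on 1432488_a_at. The 6 Sf3b2 probe sets lay between -0.85 and 0.23. Sf3b5 1451185_at, among the 4 members with the largest spread, read 4.34, 8.06 and 6.92 in CDP, against 5.26 and 7.60 in CMP. The low values were on array 1 of both populations, and the difference was 0.01.

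Neither subunit of the U2AF dimer passed the test. U2af2, the large subunit that binds the polypyrimidine tract, read 8.83, 8.57 and 8.93 in CDP, against 9.25 and 9.24 in CMP. All CDP arrays were lower (-0.47 ± 0.31, limma adjusted p = 0.530), as they were for 11.0% of all tested probe sets. U2af1, the small subunit that reads the 3′ splice site, read 8.45, 10.21 and 10.64 in CDP, against 8.65 and 10.84 in CMP (0.03 ± 0.88). U2af1l4, a paralog of U2af1, read 4.89, 7.20 and 6.78 in CDP, against 4.54 and 6.68 in CMP (0.68 ± 0.90). In both genes array 1 was low in each population, and U2af1l4 was at -0.40 without CMP array 1.

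Of the 14 tested Snrp probe sets, 5 were positive and 9 negative, with a median of -0.15, or -0.26 relative to the table. The sign of the median turned without CMP array 2, to 0.10 with 8 positive and 6 negative (-0.07 relative to the table). The median was -0.24 without CMP array 1, and -0.04 with 7 of each sign without CDP array 1. Snrpb encodes the core protein SmB, a part of the ring shared by the major snRNPs, and held the most positive difference of all members. Its probe set 1419260_a_at read 8.55, 10.70 and 10.82 in CDP, against 8.51 and 9.51 in CMP (1.01 ± 0.77, limma adjusted p = 0.598). Its second probe set, 1437193_s_at, read 12.68, 12.73 and 12.91 in CDP, against 12.63 and 11.59 in CMP (0.67 ± 0.40). CMP array 2 was the low one in that probe set, and the difference was 0.15 without it. Snrpd3, another core protein, read 7.03, 10.29 and 9.85 in CDP, against 9.31 and 10.76 in CMP on 1422884_at (-0.98), with CDP array 1 lowest by over 2 units. The populations overlapped on that probe set. On the other tested Snrpd3 probe set, at -0.25, all CDP arrays were lower. Snrpb2, a protein of the U2 snRNP, was apart in both directions: 1426613_a_at read 7.28, 7.67 and 7.42 in CDP, against 8.78 and 7.70 in CMP (-0.78), and 1452422_a_at read 10.15, 10.31 and 10.15 in CDP, against 9.93 and 9.97 in CMP (0.25).

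PRP factors had 24 tested probe sets of 11 genes, 7 positive and 17 negative, with a median of -0.33, or -0.44 relative to the table. Without CMP array 2 the median changed sign, to 0.12 with 14 positive and 10 negative (-0.05 relative to the table), and without CDP array 1 it was -0.18. It was 0.08 in the pair of arrays low in the beta-actin 5′ control and -0.47 in the 3 others. Prpf39, a U1-associated protein, read 6.54, 6.81 and 5.70 in CDP, against 7.661 and 8.003 in CMP on 1428171_at. All CDP arrays were lower, by -1.48 ± 0.43 (95% confidence interval -2.52 to -0.44; limma adjusted p = 0.175). Its other probe set, 1428172_at, read 10.89, 9.53 and 9.48 in CDP, against 9.83 and 9.58 in CMP, and differed by 0.26.

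Prpf8, the large protein at the centre of the catalytic core, read 9.91, 11.01 and 11.08 in CDP, against 9.82 and 10.45 in CMP (0.54 ± 0.48). Prpf4b, a kinase of the tri-snRNP, had 5 tested probe sets between -0.29 and 0.14. Its 1455696_a_at had one of the smallest spreads of all members, at 11.60, 11.47 and 11.48 in CDP, against 11.42 and 11.47 in CMP (0.07). Prpf4 was at -0.74 on 1429724_at and 0.42 on 1438481_at. Prpf19, a ubiquitin ligase, had the widest spread of any member on 1460633_at, at 3.10, 7.53 and 7.46 in CDP, against 5.724 and 6.999 in CMP, the low values being those of array 1 in both populations.

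**Figure D3:**
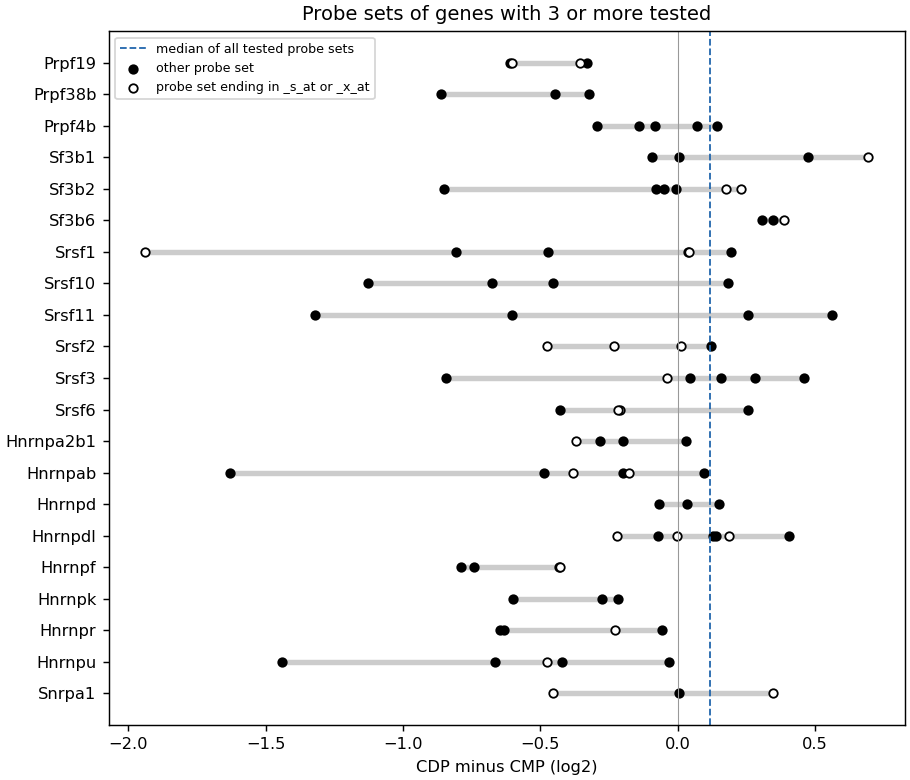
CDP minus CMP difference (log2, horizontal axis) of every tested probe set of the 21 genes with 3 or more (rows), open points marking names that end in _s_at or _x_at and grey bars the span. Probe sets of 14 of these genes fall on both sides of 0, those of 6 all below it and those of 1 (Sf3b6) all above it.

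Probe sets of the same gene often differed in sign. Of 39 genes with several tested probe sets, 21 had both signs, 15 had only negative ones and 3 only positive ones, and the median span between a gene's lowest and highest difference was 0.62. The span exceeded 1 unit in 12 genes. The 3 with only positive signs were Sf3b5, Sf3b6 and Snrpb, and the 15 with only negative signs included 8 hnRNP genes, Hnrnpa1, Hnrnpc, Hnrnpf, Hnrnph1, Hnrnpk, Hnrnpll, Hnrnpr and Hnrnpu. In Srsf10 and Snrpb2 the populations did not overlap on 2 probe sets with opposite signs. Probe sets with suffix _s_at or _x_at, which can read several transcripts, made up 39 of the 148 tested members. Without them, 39 were positive and 70 negative, with a median of -0.20.

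**Figure D4:**
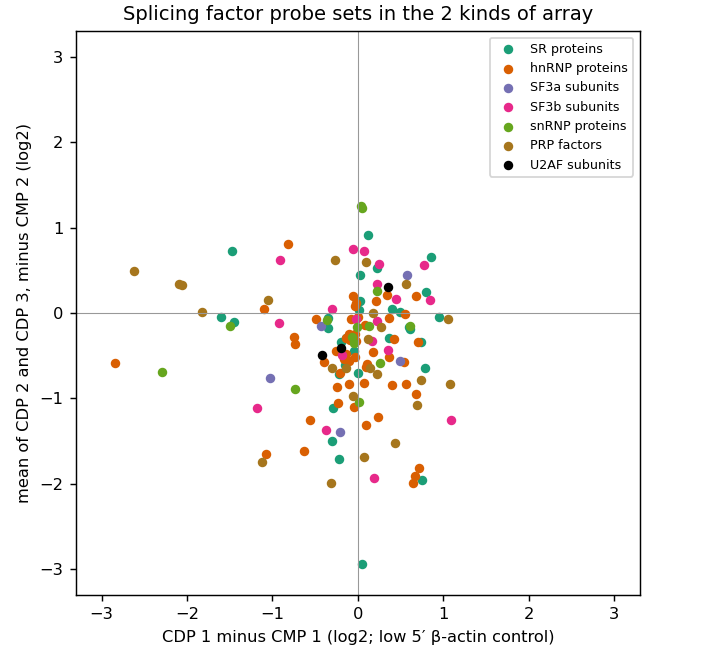
CDP minus CMP difference of each tested member, coloured by family, in the 2 arrays low in the beta-actin 5′ control (horizontal axis, log2) and in the 3 other arrays (vertical axis, log2; mean of CDP arrays 2 and 3 minus CMP array 2). Of the 148 points, 59 are negative in both and 26 positive in both.

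The 2 kinds of array gave the same sign for 85 of 148 members (57.4%), against 65.0% of all tested probe sets. Both were negative for 59 and both positive for 26. For 14 members the arrays low in the beta-actin 5′ control differed from the 3 others by over 1.5 units on average, and in 11 of those they were lower, with a mean shift of -2.92 in Prpf19 1460633_at and -2.73 in Sf3b5 1451185_at. The 3 that were higher were Srsf1 1452430_s_at and 2 Srsf11 probe sets. The largest of these shifts exceeded in size the largest difference between the populations, -1.94, and each population held 1 of the 2 low arrays.

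**Figure D5:**
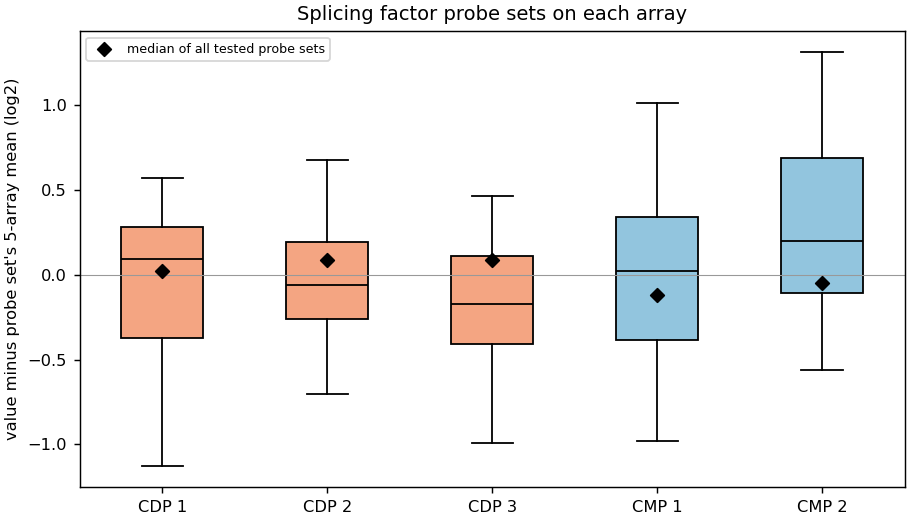
Deviation of the 148 tested members from their mean over the 5 arrays (log2, vertical axis), by array, with boxes for the middle quartiles, lines for the medians, whiskers at the 5th and 95th percentiles and diamonds for the median of all tested probe sets. The members' medians are 0.09, -0.06 and -0.17 on the CDP arrays, against 0.02 and 0.20 on the CMP arrays, the highest being CMP array 2.

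By array, the median deviation of the members from their 5-array mean was 0.09, -0.06 and -0.17 in CDP, against 0.02 and 0.20 in CMP. Over all tested probe sets it was 0.02, 0.09 and 0.09 in CDP, against -0.12 and -0.05 in CMP. On the values as deposited, CDP array 1 thus lay between the 2 CMP arrays on the members' median, and CDP array 3 lay lowest. Taken relative to the median of all tested probe sets on the same array, CDP array 1 lay below both CMP arrays. CDP array 3 was again the lowest.

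Promoter sequences are shown for Hnrnpu and Prpf39, the 2 genes with the smallest p among the members, both lower in CDP, and for Srsf4, the one member higher in CDP at an unadjusted p under 0.05. Each is the 250 bases before the annotated start (RefSeq, GRCm38.p6), 5′ to 3′ on the gene's strand, and for Srsf4 it is the first of 3 listed starts. Capitals mark the motifs found on either strand: the GC box GGGCGG and the ETS core CCGGAA, with overlapping matches merged. The windows are Hnrnpu at chr1:178337816-178338065, minus strand, Prpf39 at chr12:65036084-65036333, plus strand, and Srsf4 at chr4:131873387-131873636, plus strand.
Hnrnpu: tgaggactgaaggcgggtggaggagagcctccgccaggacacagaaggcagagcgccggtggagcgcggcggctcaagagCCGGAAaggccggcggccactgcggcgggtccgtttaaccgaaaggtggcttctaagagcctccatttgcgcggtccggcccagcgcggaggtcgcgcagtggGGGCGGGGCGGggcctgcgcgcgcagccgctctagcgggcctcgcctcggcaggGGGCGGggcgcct
Prpf39: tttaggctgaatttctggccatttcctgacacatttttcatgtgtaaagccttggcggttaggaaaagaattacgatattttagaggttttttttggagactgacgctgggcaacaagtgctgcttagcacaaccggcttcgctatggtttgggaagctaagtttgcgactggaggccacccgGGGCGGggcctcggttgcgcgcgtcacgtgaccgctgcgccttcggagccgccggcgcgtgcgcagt
Srsf4: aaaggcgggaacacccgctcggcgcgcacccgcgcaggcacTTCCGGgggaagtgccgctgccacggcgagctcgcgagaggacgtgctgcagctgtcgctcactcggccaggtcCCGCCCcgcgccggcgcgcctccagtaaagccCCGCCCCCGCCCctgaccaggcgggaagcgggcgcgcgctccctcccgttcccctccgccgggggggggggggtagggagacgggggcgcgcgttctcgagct
Hnrnpu and Srsf4, which lay on opposite sides of 0, both hold 3 GC boxes and 1 ETS core, and Prpf39 holds 1 GC box and no ETS core.

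Of the 62 genes, 55 had a window in the RefSeq table. These windows had a median GC content of 59.6% and a median of 19 CpG, against 52% and 6 over all 27025 windows. The motif CCGGAA on either strand was in 26 of the 55 (47.3%), against 12.2% of all windows. Among windows with at least 15 CpG it was in 47.6% of 42 members' windows, against 24.9% of 7436. GGGCGG was in 35 (63.6%), against 32.9% of all, but in 71.4% against 75.9% among the CpG-rich windows. CCAAT was in 27 (49.1%), against 34.5% of all, and in 42.9% against 32.5% among the CpG-rich windows. TATAAA was in 4 (7.27%), against 13% of all. Among the CpG-rich windows the order was the opposite, at 7.14% against 3.29%, but at most those 4 members' windows lie behind the first share. Such a match is a description of letters in the window, not evidence of a bound site.

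The splicing genes outside the name rule gave the same count of calls. A list of 116 further genes, from the other U1, U2 and tri-snRNP proteins to SR kinases and the exon junction complex, had 103 genes on the array and 250 tested probe sets of 98 genes. Of these, 0 were higher and 0 lower at an adjusted p under 0.05, against 1.31% and 0.423% of all tested probe sets, and 3 were higher and 9 lower at an unadjusted p under 0.05, against 11.1% higher and 4.89% lower over all tested probe sets. Their median was -0.05, against 0.12 over all tested probe sets. Luc7l2, a U1-associated protein, is named here after its values were seen, because a probe set of it had the smallest p of the list. That probe set read 11.51, 11.80 and 11.53 in CDP, against 13.19 and 12.60 in CMP. All CDP arrays were lower on it, at -1.29 ± 0.34 (limma adjusted p = 0.151). Other Luc7l2 probe sets are not shown here. In its class of the list, the other U1, U2 and tri-snRNP proteins, 28 of 57 tested probe sets were positive and 29 negative. With the beta-actin 5′ signal kind of the array as a block, 2 probe sets of the list were under an adjusted p of 0.05. On a probe set of Snrnp70, the U1-70K protein, which has others not shown here, the difference was -1.77 (limma adjusted p = 0.025). Without the block it was -1.60, with a limma adjusted p of 0.231. The other, Tial1 1426352_s_at, for an RNA-binding protein that favours weak splice sites, entered the test only through the CMP arrays, so its call is not read as a difference: it reached log2 5 on no CDP array, at 4.44, 3.89 and 3.72, against 5.47 and 5.11 in CMP. The block made 1438 calls over the whole table, against 287 without it, and none among the members.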

How the data were processed

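RNA was hybridised to 5 Affymetrix Mouse Genome 430 2.0 arrays. The authors deposited 1 log2 value per probe set and array, made with GCRMA per the submitters' processing notes (version not given in the sources used here). These values ran from 2.26 to 16.59 and were not normalised again. Both populations' columns were mapped by title, and 0 columns were unmapped. The 64 control probe sets were left out. Of 45037 probe sets, 34945 had 1 symbol in GEO's platform annotation, 932 several and 9160 none. The symbols of all 174 member probe sets were current in RefSeq.

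Differences (CDP minus CMP) were fitted over 16552 probe sets with limma 3.58.1 (R 4.3.3), lmFit and eBayes, with Benjamini-Hochberg adjustment over all of them and a threshold of 0.05; probe sets of 1 gene were kept apart. The 3 residual degrees of freedom limit the precision. The code was tested on simulated data. Tables used Python 3.11.15 and pandas 2.3.3. Detection means log2 5 or more. Named probe sets were those with the 8 largest differences each way, all those of a fixed list of genes, genes whose probe sets disagreed in sign by over 1 unit, and the 4 smallest and 4 largest spreads. Srsf7, an SR protein gene of the fixed list, had no probe set under the name rule and so was not measured here. Alternatives were filters at log2 4, 7 and none, quantile normalisation, median centring, array weights, an intensity trend, robust variance, blocks for 5′ signal or replicate number, leaving out shared probe sets or each array and, added after the data were seen, both arrays low in 5′ signal (beta-actin 5′ control under log2 8). Members and lists were chosen with earlier results of these data known.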

Additional observations from a re-analysis of the deposited data

How the results depend on the processing

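With 3 CDP and 2 CMP arrays, under all 17 alternatives 0 members were called in either direction; the smallest adjusted p was 0.058, without CDP array 1. The median difference ran from -0.32 to -0.032 when each array was left out in turn, the value nearest 0 being that without CMP array 2. Under the 5′ signal block, 2 probe sets of the wider list were called lower, against 0 without it, 1 of them (Tial1) having passed the detection filter only through the CMP arrays. Members with all CDP arrays above all CMP arrays numbered 5 after median centring, with 27 below, and 7 and 25 after quantile normalisation, against 10 and 23 as deposited; without shared probe sets 14 lay below. When each array was left out, 10 to 36 lay above and 24 to 72 below, counts that grow by construction with fewer arrays. The shares over all tested probe sets under these alternatives are not given, so the counts are not read as a result about the members. Quantile normalisation and median centring moved the median of all tested probe sets from 0.12 to 0.00 and -0.01. Calls over the whole table were 287 as deposited, 1438 with the 5′ signal block, 608 with the replicate block, 55 with no filter, 44 without CDP array 1 and 0 without any other single array. Deviations from the group means correlated at 0.61 between CDP array 1 and CMP array 1, 0.58 between CDP array 2 and CMP array 2 and 0.33 between CDP array 3 and CMP array 2; with 2 CMP arrays these deviations mirror each other, so each CDP array correlates positively with one of them, and the labels do not say what a number marks; with the replicate block, which leaves CDP array 3 unpaired, 0 members were called higher and 0 lower and the members' median was -0.19. Of 81 named probe sets, 0 to 20 changed sign, most without CMP array 1; of the 16 with the largest differences, Srsf9 (-0.42) and U2af1l4 (-0.40) did so in 1 setting each, also without CMP array 1.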
